A study of Homo sapiens with 45 samples.

Results

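The protein-coding genes of band 8q24, the end of the long arm of human chromosome 8, were described in 15 breast cancer cell lines. Members were taken by position: every protein-coding row of the count table whose gene starts on chromosome 8 between 116000000 and 145138636 (GRCh38), leaving out MYC, SQLE, NDRG1, CYC1, NDUFB9, BOP1, RPL8, MRPL13, COL14A1 and COL22A1. This gave 162 genes of 64485 rows, from EIF3H (ENSG00000147677.10, 116642130 to 116766925) to C8orf33 (ENSG00000182307.12, 145052378 to 145066685). The interval was read in 3 segments: 44 proximal genes that start before MYC (127735434), 19 middle genes, and 99 distal genes from KCNK9 to the end of the arm. The rule uses position and no measured value, though the band was proposed with earlier results of these data known. The purpose was to see whether its genes share a level per line.

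The series holds RNA counts of 15 established, untreated breast cancer lines labelled wild-type and epithelial, with 3 libraries per line and 45 in all, and its title concerns cells with high MYC. RPMI 1640 was the medium of BT-549 and of the 7 lines named HCC (HCC38, HCC70, HCC1143, HCC1187, HCC1395, HCC1806 and HCC1937). L-15 was that of the 5 MDA-MB lines (MDA-MB-468, MDA-MB-453, MDA-MB-436, MDA-MB-231 and MDA-MB-157), BT-20 grew in EMEM and Hs578T in DMEM. BT-20, BT-549 and MDA-MB-436 also received insulin, and MDA-MB-436 glutathione. Sequencing runs 1 and 2 held MDA-MB-231, Hs578T, HCC38 and HCC1143, and each of the other 11 lines had 1 library in each of runs 3, 4 and 5. Whether replicate libraries stand for separate cultures is not in the labels, and p-values then measure only the spread between these libraries, which may be technical.

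Band 8q24 is among the chromosome regions most often gained in breast cancer, and MYC is its best known gene. A gain or loss of a chromosome piece changes the number of templates of every gene on it, so genes of one piece can share part of their level. Each gene also keeps its own promoter and its own regulation, and genes of very different function lie side by side in this band. DNA copy number is not among the values analysed here, so its part in any shared level was not tested.

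Libraries held 2312138 to 14653677 counts, with a median of 6263573. Hs578T replicate 2 was the smallest, yet of all libraries it had the most genes detected (40272) and the highest mitochondrial share of counts (0.78%). The summed level of 12 epithelial markers ran from 103 CPM (counts scaled to the library's size) for BT-549 up to 12695 CPM for HCC70. In BT-549, EPCAM, CLDN4, KRT5, KRT14 and KRT17 were under 1 CPM, and in HCC1395 6 markers were, CDH1 and GRHL2 among them. The rest of the list was at 1 CPM or more in both lines. MDA-MB-436, at 177 CPM in all, had 4 markers under 1 CPM, and Hs578T (370 CPM) and MDA-MB-157 (329 CPM) had 3 each. In these lines only part of the list goes against the epithelial label. The 6 blood markers together gave 1.17 to 34.5 CPM.

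Of the 162 members, 152 had at least 1 count and 114 passed the filter on low counts and were tested. A mean of at least 5 CPM over all libraries was reached by 89 members: 37 proximal, 9 middle and 43 distal. The summed counts of all 162 members made up 0.361% to 0.374% of the libraries of MDA-MB-468 and 1.17% to 1.24% of those of HCC1937. Another 44 members (27.2%, against 20.6% of all protein-coding genes) had under 100 counts in all 45 libraries together, and 40 of them were distal. Of these, 24 lay in runs of at least 5 neighbouring members: the 11 members from HSF1, the heat shock transcription factor, to VPS28 shared 146 counts, the 7 from GML to GPIHBP1 shared 233, and the 6 from ZNF707 to SCRIB shared 18. HSF1 had 7 counts, CPSF1 (cleavage of pre-mRNA 3′ ends) 7, SCRIB (cell polarity) 5 and DGAT1 (triglyceride synthesis) 4. These genes are used by most cells, so they are given here only as listed near 0 in every line, and the cause was not tested. GPR20, LY6H, MROH6, NAPRT, ZNF707, CCDC166, TMEM249, ADCK5, AC138647.1 and AC233992.2 were listed at 0. Of the members, 56 overlap another protein-coding gene, and the strand setting of the counting is not given in the sources used here.

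Levels per transcript length (RPKM, mean over 45 libraries) differed widely by role. RAD21, a subunit of the cohesin ring that holds sister chromatids together, had the highest level at 125 RPKM, followed by MAL2, a membrane traffic protein of epithelial cells, at 116 and ATAD2, a bromodomain ATPase, at 88.4. EIF3H (translation initiation) stood at 57.0 RPKM, MAF1 (repressor of RNA polymerase III) at 53.1 and DSCC1 (loading of the replication clamp) at 49.2. Of the membrane traffic list, FAM91A1 and EFR3A had 37.4 and 35.8 RPKM. The signalling genes FAM49B, PLEC (plectin, a cytoskeletal linker) and PTK2 (focal adhesion kinase) had 28.8, 28.6 and 20.5 RPKM. The zinc finger factors were lower, with ZNF34 at 4.70 RPKM, and the restricted ion channel gene KCNQ3 had 0.431 RPKM.

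All 114 tested members differed among the 15 lines (edgeR quasi-likelihood F test, largest adjusted p 0.000713), where 98.3% of 20587 tested genes did. The median fold between the highest and the lowest line was 7.90 for the 89 members at 5 CPM or more and 6.58 for all 11543 genes at that level. Each line was then compared with the mean of the other 14, with an adjusted p under 0.05 and at least 1 on the log2 scale. Of 1710 such comparisons of members, 285 were called higher and 303 lower, where 16.2% and 12.6% of those of all genes were. The narrowest ranges belonged to DERL1 (removal of misfolded proteins from the endoplasmic reticulum), from 74.8 ± 2.57 CPM in BT-20 to 213 ± 5.22 CPM in HCC1806 (SD, n = 3), then EIF3H and WDYHV1.

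To describe what the members shared, each library got a shift: the median over the 89 members of the log2 difference from the mean of the other lines, minus the same median over all 11543 genes at that level. It is a description with no test. HCC1937 was highest, at 0.73 ± 0.02 (SD, n = 3, a fold of 1.65), and its libraries stood at 0.71, 0.71 and 0.75. MDA-MB-436 followed at 0.65 ± 0.04, BT-549 at 0.53 ± 0.01, HCC1806 at 0.47 ± 0.02 and HCC1143 at 0.41 ± 0.05. Hs578T and MDA-MB-157 were both at 0.18, and MDA-MB-453, HCC1395, HCC1187 and HCC70 lay between -0.09 and -0.01. Below them came MDA-MB-231 at -0.30 ± 0.10 and BT-20 at -0.40 ± 0.03. HCC38, at -1.05 ± 0.09, and MDA-MB-468, at -1.06 ± 0.01, were lowest, with a fold of 0.482 and 0.479.

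Neighbours in this order whose libraries overlapped were HCC1806 with HCC1143, Hs578T with MDA-MB-157, MDA-MB-453 with HCC1395, HCC1187 with HCC70, MDA-MB-231 with BT-20, and HCC38 with MDA-MB-468. The others were separate. Against lines of the same runs only, HCC1143 rose to 0.70 and Hs578T to 0.39, and MDA-MB-231 was -0.17. The shift had no visible relation to depth (Pearson's r 0.01 over 15 lines with log2 total counts). With the mean number of genes detected its r was 0.30 and Spearman's rho 0.49.

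**Figure D1:**
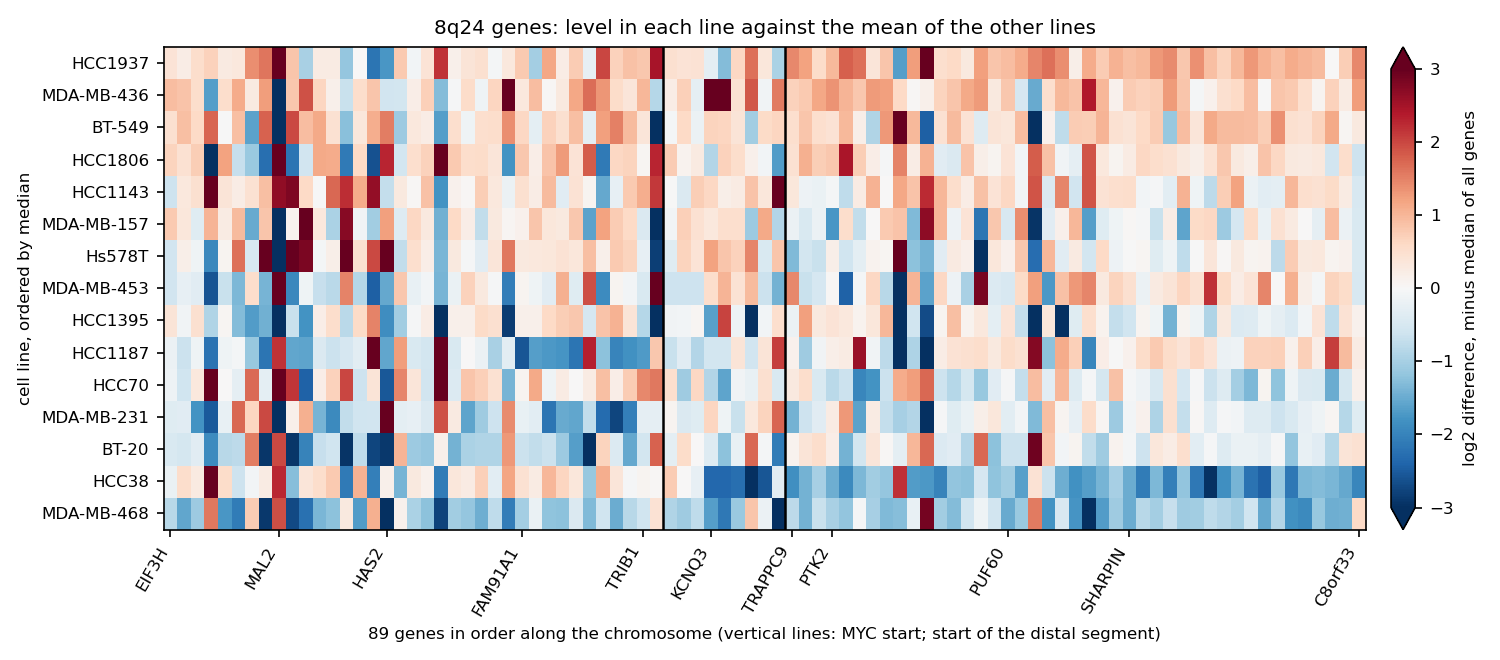
The log2 difference of 89 genes of 8q24 (columns, in order along the chromosome) from the mean of the other lines in each of 15 lines (rows, ordered by their median), minus the median of all genes. Red is higher and blue lower. HCC1937 is mostly red and MDA-MB-468 mostly blue, and HCC38 turns blue from KCNQ3 on.

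In HCC1937 the distal genes led. Of 114 tested members, 48 were higher and 4 lower in this line (background 14.7% higher, 10.7% lower), and 39 of the 48 were distal. The 43 distal members at 5 CPM or more had a shift of 1.06 ± 0.13, with 1.21, 0.98 and 0.98 in the 3 libraries, and 42 of them lay above the median of all genes. The proximal shift was 0.42 ± 0.07 and the middle shift 0.37 ± 0.06. PLEC was 1363, 1181 and 1216 CPM in HCC1937, above every other line, of which HCC1806 was nearest at 758 ± 60.1 (log2 1.77 ± 0.10 SE, adjusted p 9.7e-20). TRAPPC9, a subunit of a vesicle tethering complex, was 34.9 ± 6.86 CPM (log2 1.62), and SHARPIN, part of the linear ubiquitin ligase, 66.8, 74.8 and 69.8 CPM. HCC1937 was the line of highest level for 22 of the 89 members and of lowest level for 0. Its 4 lower calls became 2 against lines of the same runs and 7 without replicate 3.

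MDA-MB-436 had a more even rise. Here 36 of 114 tested members were higher and 4 lower (background 16.6% and 10.8%), and the proximal, middle and distal shifts were 0.51 ± 0.07, 0.71 ± 0.06 and 0.76 ± 0.04. PTK2 reached 586, 611 and 515 CPM in this line, next to 498 ± 12.2 in HCC1937, and fell to 72.2 ± 6.05 in MDA-MB-157. A group of neighbours in the middle segment stood far above that shift. KCNQ3 was 45.4, 50.4 and 38.7 CPM in MDA-MB-436 and at most 6.89 ± 6.57 in any other line, Hs578T, whose shallow replicate 2 had 14.5 CPM (log2 4.45 ± 0.19 SE, adjusted p 8.11e-25). LRRC6, needed for the assembly of cilia motors, was 29.7, 30.6 and 21.8 CPM, and TMEM71 18.8, 24.7 and 28.0 CPM. Over the 11 tested members from ADCY8 to ST3GAL1, 8 were higher and 0 lower. Only 5 of the 11 were at 5 CPM or more, and 3 of these were called higher. Members of lower level can pass the filter through the line where they are high, so their calls do not add to a shared rise. PHF20L1, a chromatin reader at 245 CPM in this stretch, was not called (log2 0.42). That stretch was chosen after its values were seen.

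In BT-549, 26 tested members were higher and 10 lower (background 13.0% and 11%), and the 3 segments had shifts of 0.51, 0.45 and 0.56. In HCC1806 19 were higher and 8 lower (background 15.7% and 14%), and in HCC1143 21 were higher and 3 lower (18.2% and 11.5%). Against lines of the same runs HCC1143 had 32 higher, and without replicate 1 it had 5 lower. In Hs578T 25 were higher and 13 lower (20.7% and 9.61%), but without its shallow replicate 2 15 were higher, and against lines of the same runs 5 were lower.

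**Figure D2:**
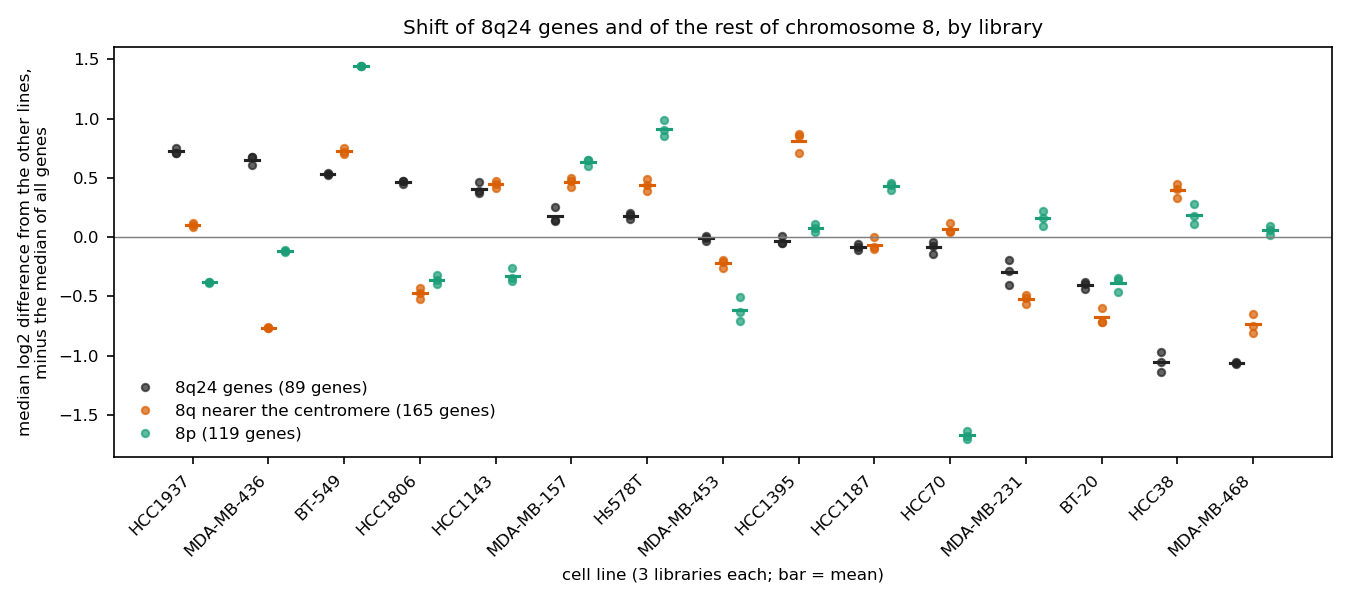
Shift of 89 genes of 8q24 (black), 165 genes of 8q nearer the centromere (orange) and 119 genes of 8p (green) in each library of 15 lines, on the log2 scale, with bars for the mean of 3 libraries. The 8q24 genes run from 0.73 in HCC1937 to -1.06 in MDA-MB-468, and in HCC38 and MDA-MB-436 they lie on the other side of 0 from the rest of 8q.

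MDA-MB-468 was low along the whole interval. Of 114 tested members, 55 were lower and 6 higher (background 9.2% and 14.7%). The shifts of the proximal, middle and distal members were -1.09 ± 0.01, -1.003 ± 0.04 and -1.04 ± 0.03, and 11 of 89 members lay above the median of all genes. RAD21 was 472, 315 and 317 CPM, below every line except MDA-MB-231 (log2 -1.01 ± 0.18 SE, adjusted p 5.89e-06). EIF3H, at 211 ± 28.0 CPM, was lowest beside Hs578T at 216 CPM, with a fold too small for a call (log2 -0.75). OPLAH, which splits oxoproline in the glutathione cycle, had 0, 0 and 0.165 CPM in MDA-MB-468 and 27.2, 21.0 and 20.9 CPM in MDA-MB-436.

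HCC38 had as low a median as MDA-MB-468, but it came from only part of the interval. Of 114 tested members, 61 were lower and 9 higher (background 10.1% and 13.9%), and of the 61, 6 were proximal, 9 middle and 46 distal. The proximal shift was 0.27 ± 0.10, the middle shift -2.16 ± 0.13 and the distal shift -1.51 ± 0.08. Along the chromosome the change fell between EFR3A, a plasma membrane scaffold (131904088 to 132013642), and KCNQ3 (132120858 to 132481019). The 40 members at 5 CPM or more up to EFR3A had a median of 0.25, 0.38 and 0.16 in the 3 libraries. The 49 from KCNQ3 to C8orf33, over 12.9 Mb, had -1.48, -1.65 and -1.52, a fold of 0.341. This border was placed after the values were seen.

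The genes on either side of that border show the contrast. FAM49B, which restrains actin branching, was 395, 495 and 408 CPM in HCC38, among the highest 2 lines, and EFR3A at 193 CPM was not called (log2 -0.13). PHF20L1 was 43.2, 50.2 and 43.2 CPM in HCC38, while the next lowest line, MDA-MB-468, had 94.4 ± 4.92 and the median line 226 CPM (log2 -2.17 ± 0.11 SE, adjusted p 7.01e-22). ST3GAL1, a sialyltransferase, was 4.92, 7.84 and 5.57 CPM, and ZFAT, a zinc finger factor, 3.23, 2.29 and 3.13 CPM. MAF1 was 31.1, 30.2 and 31.9 CPM, and the next lowest line, MDA-MB-468, had 70.4 ± 6.03. In all, 47 of the 49 members past the border lay below 0 and 40 were called lower. LY6K, a GPI-anchored protein of the LY6 family, was the 1 called higher (log2 2.41), and KHDRBS3, an RNA splicing factor, was not called (log2 -0.19).

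HHLA1 lies between EFR3A and KCNQ3 (132061486 to 132111159, minus strand). It is a gene of little known function with a low level in most lines. In HCC38 it had 13.7, 14.5 and 15.2 CPM, and the next line, Hs578T, had 3.55 ± 4.15 CPM, where replicate 2 alone reached 8.34 (log2 in HCC38 3.83 ± 0.25 SE, adjusted p 4.3e-18). It overlaps the gene AC100868.1 on the same strand. HHLA1 was named after its values were seen.

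The genes that the selection leaves out were not used to place the border. Of the 5 that lie before it (COL14A1, MRPL13, NDUFB9, SQLE and MYC), 0 were called lower in HCC38 and NDUFB9, a subunit of complex I, was higher (log2 1.09 ± 0.09 SE, adjusted p 2.79e-14). Of the 5 that lie after it, NDRG1, COL22A1, CYC1 and RPL8 were lower and BOP1 was not called (log2 -0.36). RPL8, a protein of the large ribosomal subunit, was 178, 189 and 193 CPM in HCC38 (log2 -1.63 ± 0.13 SE, adjusted p 1.49e-14), and CYC1, of complex III, was 58.0, 61.5 and 60.8 CPM (log2 -1.20 ± 0.15 SE, adjusted p 3.83e-09). Over the 24 members at 5 CPM or more that overlap no other annotated gene, of which 11 are proximal, the HCC38 shift was -0.31, and over the 13 of them that are middle or distal it was -1.38.

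**Figure D3:**
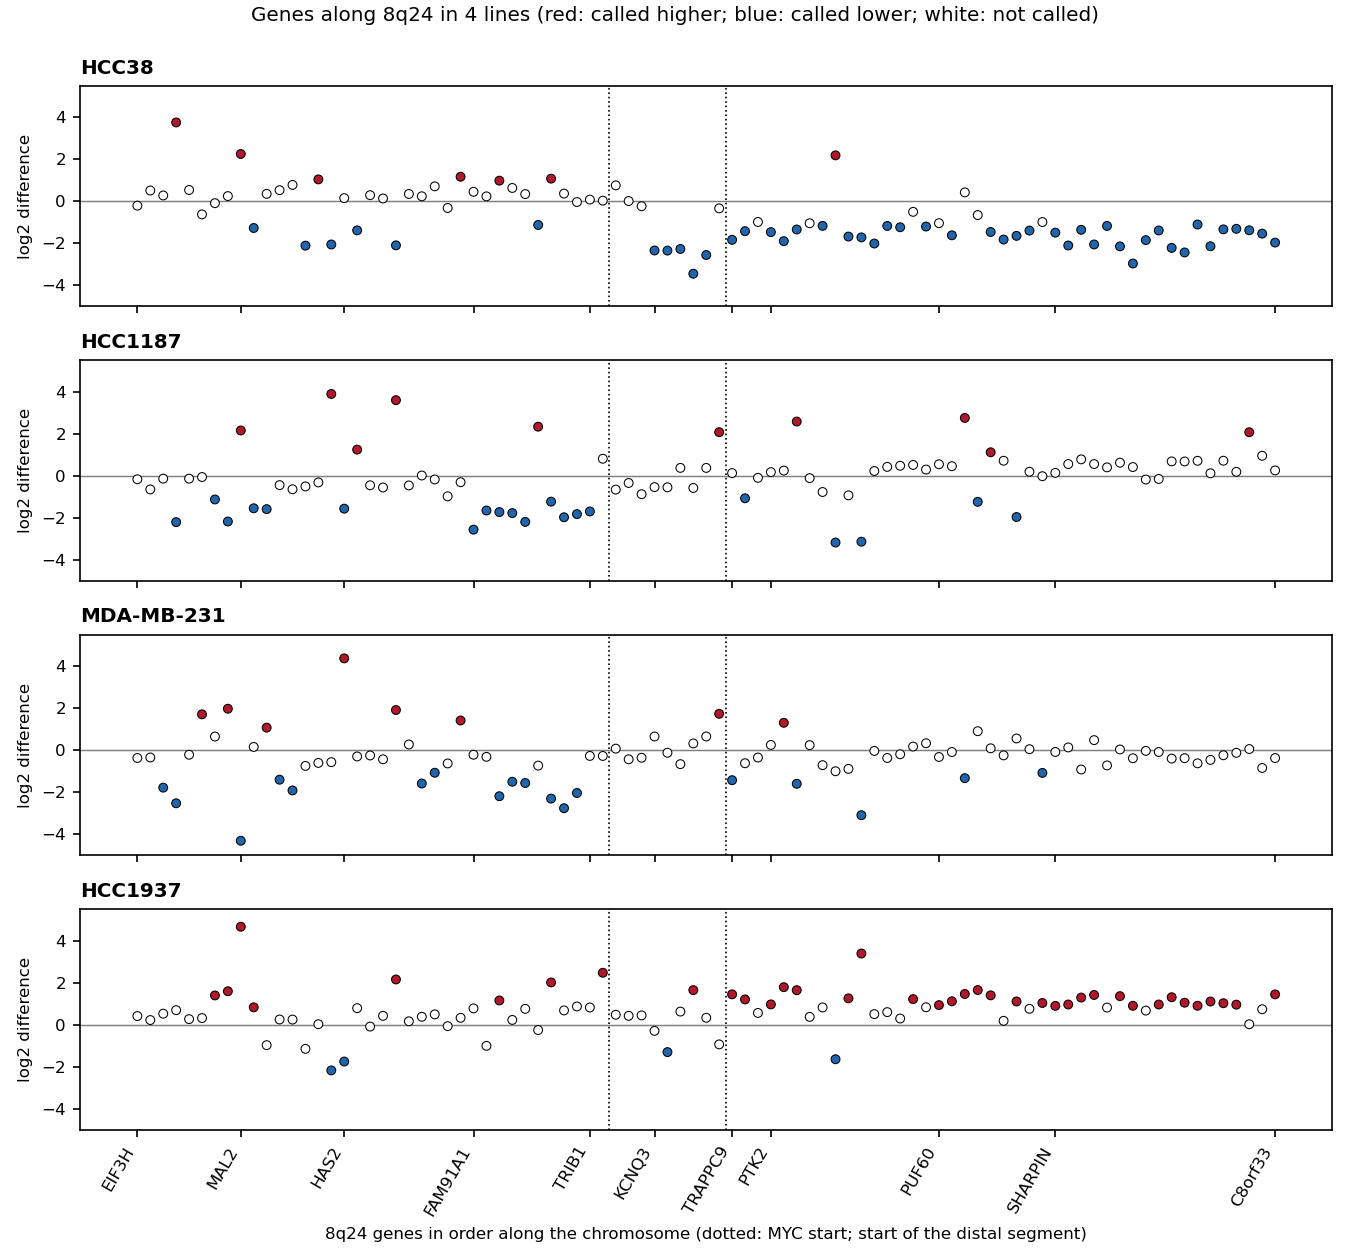
Log2 difference from the mean of the other lines, minus the median of all genes, of 89 genes of 8q24 in order along the chromosome in HCC38, HCC1187, MDA-MB-231 and HCC1937. Filled points were called higher (red) or lower (blue). HCC38 steps down at KCNQ3, HCC1187 and MDA-MB-231 have a trough between FAM91A1 and TRIB1, and distal points of HCC1937 sit near 1.06.

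HCC1187 and MDA-MB-231 each had a short trough in the proximal segment. In HCC1187, 24 of 114 tested members were lower and 13 higher (background 12.9% and 15.9%), and 10 of the 24 lay within 1.67 Mb, from FAM91A1 (123768456 to 123815452) to TRIB1 (125430321 to 125438405). The 10 members at 5 CPM or more in this stretch had a median of -1.996, -1.78 and -1.70 in the 3 libraries, a fold of 0.282, whereas the other 79 had -0.01. Over members of the whole set that overlap no other gene the shift in HCC1187 was -0.50, against -0.08 over all 89. FAM91A1, TMEM65, TRMT12, RNF139, ZNF572 and TRIB1 of this stretch are among those members. Over the middle and distal ones of them the shift was 0.43. FAM91A1 was 39.7, 52.4 and 46.3 CPM, and the next lowest line, MDA-MB-468, had 130 ± 3.52 (log2 -2.56 ± 0.14 SE, adjusted p 2.14e-21). TATDN1, RNF139 (a ubiquitin ligase of the endoplasmic reticulum), TMEM65 and TRIB1 (a pseudokinase that steers proteins to degradation) were also at their lowest in HCC1187. MTSS1, a membrane-bending protein inside the same stretch, was the exception at 45.6 ± 7.07 CPM, the highest of the 15 lines (log2 2.41).

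In MDA-MB-231, 21 members were lower and 10 higher (background 9.92% and 15.7%), and 13 of the 21 were proximal. The trough was narrower, 0.916 Mb from TRMT12 (124450820 to 124462150) to NSMCE2 (125091679 to 125367120), with -1.98, -1.87 and -1.86 over 7 members. WASHC5, part of an endosomal actin complex, was 10.5, 15.8 and 11.8 CPM there, and HCC1187 was next at 21.8 ± 2.21. NSMCE2, a SUMO ligase of DNA repair, was 17.7 ± 2.52 CPM, beside 21.0 ± 3.58 in HCC1187. Within this stretch 6 members were called lower. TMEM65 (log2 -0.37) and TRIB1 (log2 -0.28), just outside, were not called. RAD21, TAF2, DSCC1 and ZHX1, proximal and farther outside, were also at their lowest in MDA-MB-231, so low levels were not confined to the stretch. Both stretches were chosen after their values were seen. NDUFB9, which lies inside both and was not used to find them, was lower in HCC1187 (log2 -2.05 ± 0.13 SE, adjusted p 8.47e-19) and in MDA-MB-231 (log2 -1.95 ± 0.13 SE, adjusted p 6.37e-18). NDUFB9 overlaps the members TATDN1 and MTSS1, and the strand setting of the counting is not given, so its counts may not be independent of theirs. SQLE, the squalene epoxidase of cholesterol synthesis and also inside both, was lower in MDA-MB-231 (log2 -1.61) and not called in HCC1187 (log2 -0.17).

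BT-20 was low in the proximal segment, with a shift of -0.80 ± 0.07 there against -0.21 ± 0.09 and -0.10 ± 0.16 in the other segments. Of its 114 tested members, 21 were lower and 13 higher (background 11.4% and 14.1%). DERL1 was 75.2, 72.1 and 77.1 CPM, next to MDA-MB-468 at 81.4 ± 8.14. In HCC1395, HCC70, MDA-MB-157 and MDA-MB-453 most counts of called members were near or below the share over all genes. In HCC1395 28 were lower and 8 higher (background 17.8% and 14.4%; 5 higher against lines of the same runs), in HCC70 19 and 20 (22.7% and 18%), in MDA-MB-157 17 and 16 (12.2% and 20.4%), and in MDA-MB-453 15 and 15 (14.9% and 17.2%).

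Nearby members were more alike over the lines than distant ones. The median Pearson's r of log2 level over 15 lines was 0.54 for 608 pairs that start within 1 Mb of each other, 0.37 for 812 pairs at 1 to 5 Mb, 0.26 for 861 pairs at 5 to 15 Mb and 0.16 for 1635 pairs farther apart. Distal members had the highest median over all their pairs, 0.51, against 0.26 in both the proximal segment and the whole set. The 43 distal members lie within 5.34 Mb, so distance and segment are mixed in these pairs. Among 41 chromosome arms the median of this value was 0.18, and 9 arms were above the whole set. These included 8p (0.38) and the rest of 8q (0.30). These values describe pairs from the same 45 libraries, and 8 of the 3916 pairs overlap each other. The genes most like the median of the other members were SHARPIN (r 0.90), PUF60 (splicing), ZNF7, COMMD5, EXOSC4 (a core subunit of the RNA exosome), MAF1, ZNF34 and PHF20L1 (r 0.84), and 7 of these 8 are distal. SHARPIN ran from 13.3, 17.3 and 12.7 CPM in MDA-MB-468 and 14.6, 13.6 and 15.3 CPM in HCC38, which overlapped, to 58.1 ± 5.51 CPM in MDA-MB-436 and 70.5 ± 4.06 CPM in HCC1937. EXOSC4 was 7.69 ± 2.04 CPM in MDA-MB-468 and 43.3 ± 7.14 CPM in BT-549.

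Other members had levels unrelated to the shift. The lowest likeness was found for EPPK1 (epiplakin, a keratin-binding protein, r -0.17), AARD, SAMD12, MAL2 (r -0.08) and FAM84B. MAL2 was called higher in 9 lines and lower in the other 6. It was 1835, 1966 and 2099 CPM in HCC70 and 1.68, 1.56 and 1.22 CPM in HCC1395. The 6 lines with under 4 CPM on average were HCC1395, MDA-MB-157, BT-549, Hs578T, MDA-MB-231 and MDA-MB-436, and no library of these overlapped the other 9 lines. The same 6 lines had the 6 lowest summed epithelial markers, up to 1704 CPM in MDA-MB-231, where the other 9 had at least 4016 CPM (MDA-MB-453), and their part in the MAL2 level was not tested. In bulk RNA, fewer cells with a transcript and less of it per cell cannot be told apart. HCC1937 and BT-549 thus had shifts of 0.73 and 0.53 with MAL2 at 1437 and 2.91 CPM.

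In the list of secreted and matrix genes, HAS2, which makes hyaluronan, was 300, 616 and 353 CPM in Hs578T and 64.6, 155 and 83.0 CPM in MDA-MB-231, the next line, while the median line had 3.20 CPM and MDA-MB-468 0.472 ± 0.17 CPM. ENPP2 (autotaxin, which makes lysophosphatidic acid) was 43.4, 41.1 and 40.3 CPM in MDA-MB-157. TNFRSF11B (osteoprotegerin, a decoy receptor) and NOV were highest in Hs578T at 59.0 and 56.6 CPM. Hs578T also had the highest mean summed level of 10 mesenchymal or fibroblast markers, 10052 ± 5639 CPM, with a wide spread between its libraries. MDA-MB-157 was next at 6409 ± 141 CPM. The part of these markers in the levels of the secreted genes was not tested. LY6K was 202, 149 and 277 CPM in Hs578T and 0.271 ± 0.10 CPM in MDA-MB-453. Of the 12 members in the LY6 family list, 8 were listed with under 100 counts in all.

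AARD, a gene of unknown biochemical role, was 161, 153 and 159 CPM in HCC1143 and 65.1 ± 12.9 in HCC38, and on average under 1 CPM in HCC1806, MDA-MB-453 and MDA-MB-231. FAM83A, an adaptor of growth factor signalling, reached 88.7 ± 9.85 CPM in HCC1806, SNTB1 (a syntrophin) 76.8 ± 4.37 CPM in HCC1187 and EPPK1 40.9 ± 0.65 CPM in BT-20. SLC45A4, a transporter of the solute carrier family, was 98.3, 88.1 and 78.4 CPM in HCC1187 and 5.06 ± 0.13 CPM in HCC70. LYNX1, a modulator of acetylcholine receptors, was 39.5, 38.7 and 44.3 CPM in HCC1937 and 34.9, 30.4 and 20.7 CPM in MDA-MB-468, the lines at opposite ends of the shift, and 0.263 ± 0.13 CPM in MDA-MB-231. SAMD12 was 121 ± 4.94 CPM in HCC70 and 11.8 ± 2.29 CPM in MDA-MB-157, and TAF2, a subunit of the general transcription factor TFIID, 377 ± 28.3 CPM in HCC1806 and 66.0 ± 9.27 CPM in MDA-MB-231. FAM83A in HCC1143 was called lower (log2 -2.01, adjusted p 0.000199), but not against lines of the same runs (adjusted p 0.0747).

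**Figure D4:**
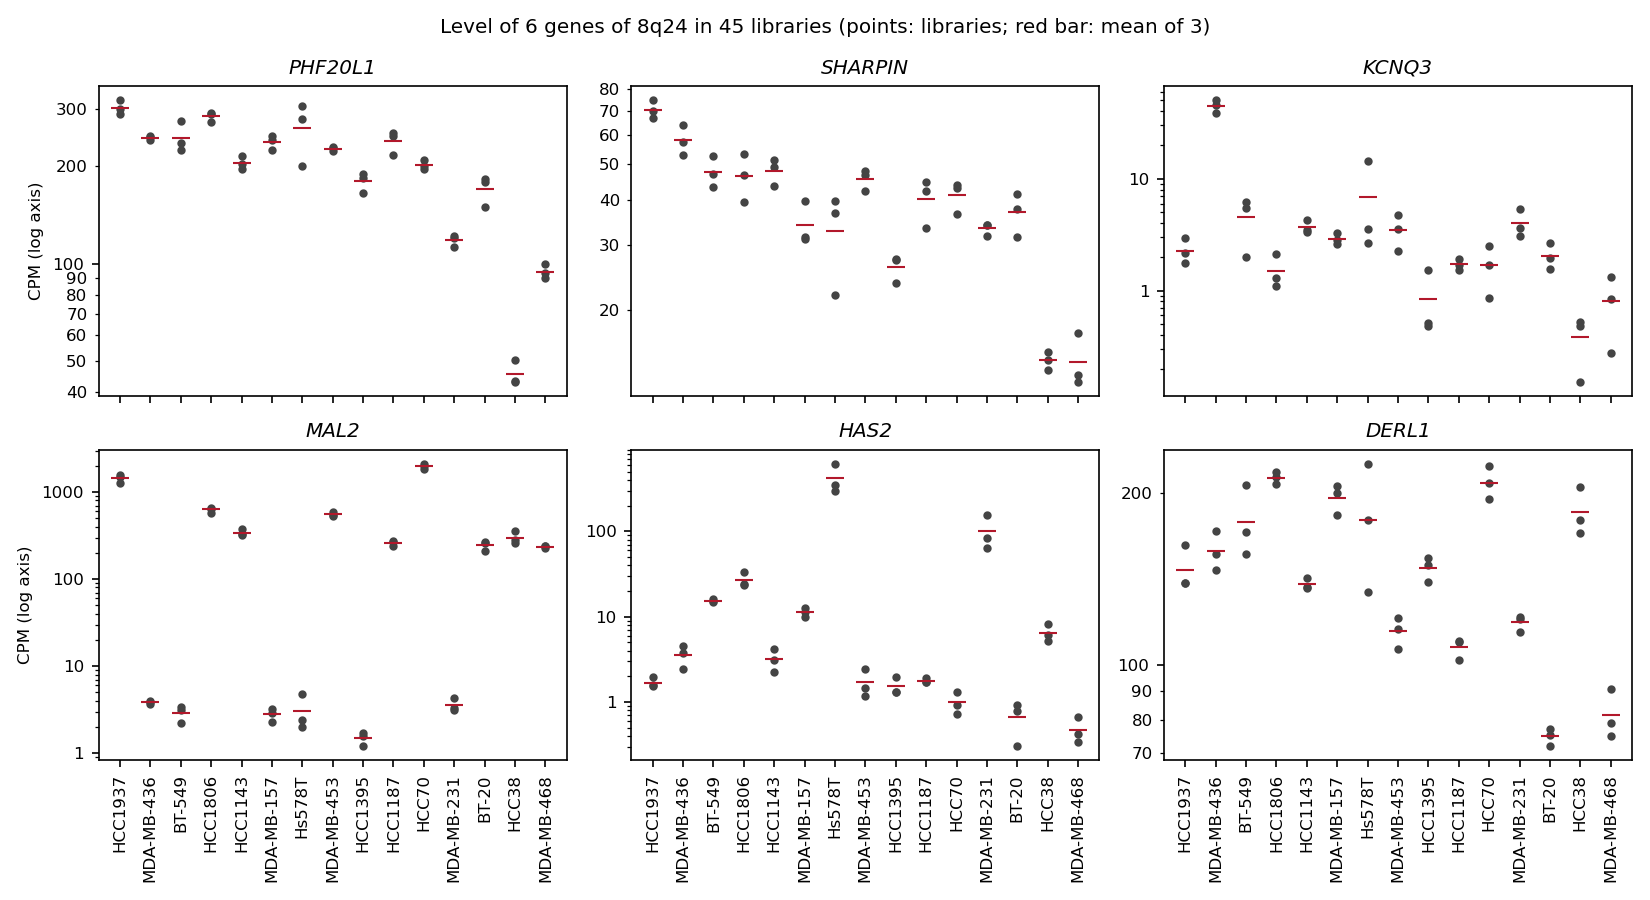
CPM of 6 genes in all 45 libraries (points, log axis) with the mean of each line (red bars), lines ordered by the shift from HCC1937 to MDA-MB-468. PHF20L1 and SHARPIN fall at the right end, KCNQ3 stands out in MDA-MB-436 at 44.8 CPM, MAL2 forms 2 separate levels, HAS2 peaks in Hs578T at 423 CPM, and DERL1 stays within 74.8 to 213 CPM.

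By role, MDA-MB-468 was low in several lists (background 9.2% lower), but 48.2% of all tested members were lower in this line. In this line, 9 of 14 tested members for transcription, RNA processing and translation were lower and 0 higher, as were 6 of 9 for replication, repair and cohesion, with 0 higher. In HCC38, 53.5% of all tested members were lower (background 10.1%). There, 11 of 12 tested zinc finger factors were lower, among them ZNF34 at 2.00, 2.53 and 1.92 CPM. The other, ZNF572, was higher (log2 1.30). Of the zinc finger list, only ZNF572 and ZHX2 lie before the border. The replication list, with 4 lower and 1 higher of 9, had a shift of -0.03. Its members RAD21, DSCC1, MTBP, ATAD2 and NSMCE2 lie before the border, so role and position cannot be told apart. In HCC1937, 14.7% of all genes and 42.1% of all tested members were higher. Of the lists, 7 of 15 tested adhesion and signalling genes and 6 of 12 zinc finger factors were higher. So were 3 of 4 enzymes and transporters and 3 of 4 LY6 genes. Of the restricted nerve and endocrine genes, 1 of 16 members was at 5 CPM or more. In MDA-MB-436, 9 of 12 tested were higher (background 16.6%, all tested members 31.6%), and 8 were lower in MDA-MB-468. Nearly all of these genes are of low level, and such a gene can pass the filter through the line where it is high. The counts of this list therefore show no shared change. The role lists were drawn up with results of these data in view, and their counts are given as descriptions.

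The left-out genes shared the direction of the members in most lines. Over 9 of these genes at 5 CPM or more, the shift had the sign of the members' shift in 12 of 15 lines, with Pearson's r 0.81 and Spearman's rho 0.75 over the lines (r 0.78 without MDA-MB-468 and HCC38). It was 0.55 ± 0.04 in MDA-MB-436 and -1.38 ± 0.15 in MDA-MB-468. RPL8 (r 0.87) and CYC1 (r 0.83), both distal, followed the members more closely than NDRG1 (r 0.21), a stress-induced gene, or SQLE (r 0.30). The r values are descriptions over 15 lines that share libraries and scaling.

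The rest of chromosome 8 did not follow the band in every line. For 165 genes of 8q nearer the centromere, the shift was 0.40 ± 0.06 in HCC38, -0.76 ± 0.01 in MDA-MB-436 and -0.47 ± 0.04 in HCC1806, each on the other side of 0 from the members. In MDA-MB-468 it was -0.73 ± 0.08 and in BT-549 0.72 ± 0.02, the same side. For 8p, with 119 genes, it was -1.67 ± 0.04 in HCC70 and 1.45 in BT-549. Over the 15 lines Pearson's r with the members' shift was 0.21 for the rest of 8q and 0.06 for 8p. Among 41 chromosome arms with 20 or more genes, the members' shift was above all arms in HCC1937, below all arms in HCC38 and MDA-MB-468, and below 1 arm in MDA-MB-436. The SD of the shift over the lines was 0.55 for the members and 0.54 for the rest of 8q. It was larger for 3 arms, 8p (0.72) among them, and the arm median was 0.34. The arms held 49 to 649 genes each and the members were 89 genes of 1 band, so sets of unlike size and length are compared.

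MYC had little relation to the median of the 89 members over the 15 lines (Pearson's r 0.11, Spearman's rho 0.22, and r 0.17 without MDA-MB-468 and HCC38). With PVT1, the noncoding gene beside it, its r was 0.43 and rho 0.49 (r 0.71 without HCC1187 and MDA-MB-468). That pair of lines differs from the pair left out for the members. HCC1187 had the least PVT1, 3.85 CPM, with MYC at 101 CPM, so the r without it is no check of the r over 15 lines. MDA-MB-231 had the most MYC, 149, 217 and 245 CPM, and was called higher (log2 1.46 ± 0.12 SE, adjusted p 3.99e-15) with a member shift of -0.30. MDA-MB-453 had the least, 13.8, 17.3 and 21.2 CPM (log2 -2.33 ± 0.17 SE, adjusted p 2.4e-16), with a member shift of -0.01. In MDA-MB-157 MYC was 34.8 ± 3.42 CPM with a member shift of 0.18. HCC38, where the band steps down past MYC, had 62.1, 119 and 96.1 CPM. HCC1937 and MDA-MB-436, with the highest member shifts, had MYC at 104 ± 7.20 and 99.0 ± 6.51 CPM, near the 105 ± 2.03 CPM of HCC1395.

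**Figure D5:**
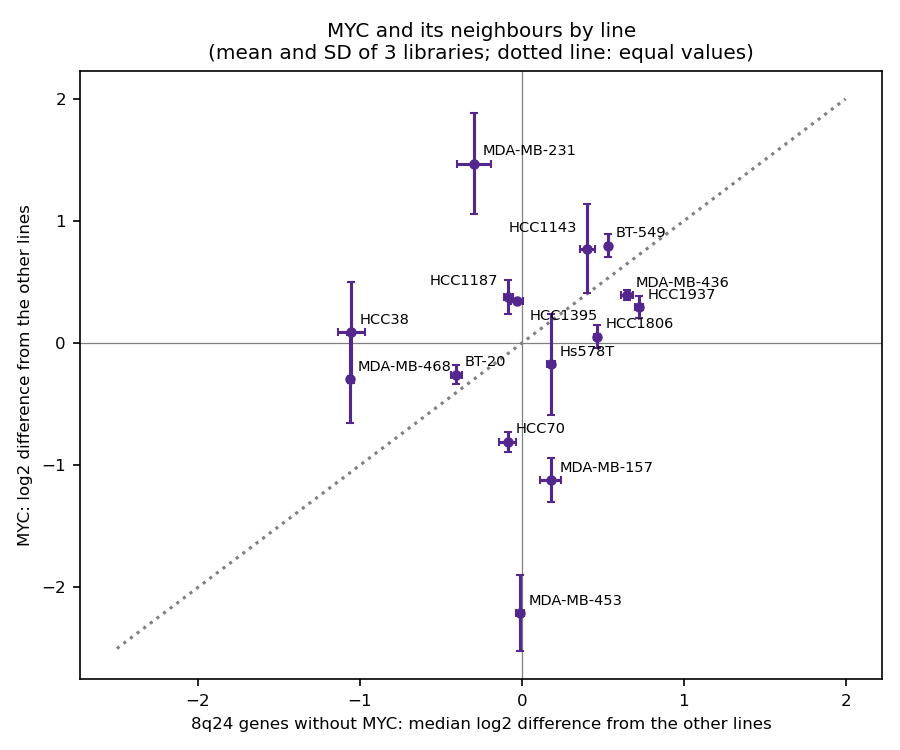
MYC (vertical axis) against the median of 89 other genes of 8q24 (horizontal axis), both as log2 difference from the mean of the other lines minus the median of all genes, with mean and SD of 3 libraries per line. MDA-MB-231 lies far above the dotted line of equal values and MDA-MB-453 far below it.

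Tested gene by gene over 15 line sums, 0 of 123 members rose and 0 fell with the log2 level of MYC (edgeR quasi-likelihood test, adjusted p under 0.05), where 0.00751% and 0.147% of 26615 genes did. At an unadjusted p under 0.05, 2 members rose and 1 fell, where 2.58% and 3.62% of all genes did. DESeq2 called 0 rising and 0 falling of 110 members with an adjusted p (background 0.767% and 0.871% of 16295 genes). The smallest p was that of KHDRBS3, with a slope of 1.24 ± 0.45 (SE) log2 units per log2 unit of MYC (adjusted p 0.588). KHDRBS3 was 151 ± 22.4 CPM in HCC1143 and 1.25 ± 0.26 CPM in MDA-MB-468. MAFA, DENND3, DEPTOR (an inhibitor of mTOR) and PLEC came next, with slopes of -1.04, 0.94, -1.17 and 0.63. DENND3, an activator of vesicle GTPases, was 73.1 ± 2.43 CPM in HCC1806 and 2.43 ± 0.84 CPM in MDA-MB-453. DEPTOR was 109, 17.2 and 56.8 CPM in Hs578T and 0.718 ± 0.18 CPM in BT-20.

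Between the 5 lines in L-15 and the 8 in RPMI 1640, 0 of 114 members were higher and 0 lower (edgeR quasi-likelihood test on line sums, background 0.0% and 0.0% of 20505 genes). At an unadjusted p under 0.05, whatever the fold, 2 were higher and 8 lower, where 5.67% and 5.71% of all genes were. The 3 smallest p-values belonged to DNA replication and cohesion genes of the proximal segment, all lower in L-15. DSCC1 had line means of 29.9 to 114 CPM (median 51.9) in L-15 and 71.0 to 303 CPM (median 174) in RPMI 1640, groups that overlap (log2 -1.62 ± 0.39 SE, adjusted p 0.278). ATAD2 had medians of 317 and 866 CPM (log2 -1.17 ± 0.29) and RAD21 of 504 and 1005 CPM (log2 -1.01 ± 0.32). DESeq2 called these 3 lower, with adjusted p of 0.00219, 0.00359 and 0.0341, and 0 members higher, of 111 with an adjusted p (background 1.27% lower and 0.886% higher of 20084 genes). The medium goes with the origin of the lines, since the 5 in L-15 are the MDA-MB lines, so medium and line origin cannot be told apart.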

How the data were processed

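The authors deposited raw counts per gene, 64485 rows by 45 libraries, each a whole number of reads. Per the labels' protocols, total RNA was depleted of ribosomal RNA and the ScriptSeq v2 kit made the libraries. The tools named per the submitters' processing notes are bcl2fastq 2.20.0.422, FastQC, MultiQC, Trimmomatic, STAR, featureCounts and GRCh38.p12. How featureCounts treated strand and multiply aligned reads, and which gene annotation it read, is not given in the sources used here. Rows were matched to GENCODE 29 by identifier without version, and 58275 (90.4%) matched.

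From the counts, edgeR 4.0.16 in R 4.3.3 gave TMM-scaled CPM and log2 CPM (prior count 2). Genes passed filterByExpr (minimum count 10, minimum total 15). The quasi-likelihood test with Benjamini-Hochberg adjustment over all genes tested was used, two-sided, at 0.05. Line and medium comparisons also needed an absolute log2 change of 1. The SE is the absolute estimate divided by the square root of F. Medium and MYC tests used counts summed per line. Without 2 lines alone in their media (BT-20, Hs578T), 5 and 8 lines were compared by medium. RPKM used the exonic length. The common coefficient of variation between replicates was 0.158. DESeq2 1.42.0, other scalings, filters, references and left-out libraries were alternatives. The fits were tested on simulated data.

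The members, role lists, markers and alternatives were chosen with earlier results of these data known. Named members are the largest called rise and fall in each line, the highest RPKM and widest range of each role list, the 8 most and 5 least like the other members, the 3 of narrowest range, the 5 of smallest p by medium and by MYC, and those without a count. The largest fall in 1 line is not reported here. Other genes named beside a stretch or a count were chosen after their values were seen. Labels give replicate number and sequencing run, and in 11 lines the number marks a shared run. Libraries of the same number had median correlations of deviations of 0.08, 0.05 and 0.00, and those of different numbers -0.03.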

Additional observations from a re-analysis of the deposited data

How the results depend on the processing

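The counts of members differing among lines (114), of member-by-line calls higher (285) and lower (303) stayed within 1.5 times under DESeq2 size factors, the DESeq2 tests, no expression filter, the replicate block (sequencing run: 116, 292 and 311), lines of the same runs as reference, and leaving out each replicate or Hs578T replicate 2. Of the 588 calls, 557 were kept under the replicate block and 527 to 548 without replicate 1, 2 or 3. Against lines of the same runs 579 of the calls were also tested, and 477 were kept. In each of these settings 0 turned to the other direction. For the 30 largest rises and falls by line, 269 of 270 values kept direction and call. Members lower in L-15 went from 0 to 3 under DESeq2. The other counts by medium and MYC stayed at 0. The SD of the shift over the lines, 0.55, was 0.53 with a mean level of at least 1 CPM, 0.49 at 20 CPM, 0.58 against lines of the same runs and 0.53 over members that overlap no other gene (an alternative chosen after seeing the data). HCC1937 was the highest line in 10 of 12 alternatives, and HCC38 and MDA-MB-468 were the lowest pair in 10 of 12. HCC1395 ranged from -0.11 to 0.08, MDA-MB-453 from -0.18 to 0.02 and HCC70 from -0.23 to 0.12, so their sign depends on these settings. Levels near 1 CPM rest on few counts, and members listed near 0 cannot be compared.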

Other observations

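The long noncoding RNA genes of the interval were not used by the selection. For 36 of them with a mean of at least 1 CPM, the shift, taken against the same genes at 5 CPM or more, followed that of the protein-coding members with Pearson's r 0.71 and Spearman's rho 0.71 over 15 lines (r 0.60 without MDA-MB-468 and HCC38). It was -1.04 ± 0.07 in MDA-MB-468 (SD, n = 3) and 0.53 ± 0.19 in MDA-MB-436. In Hs578T it was 0.33, 2.10 and 0.44 in replicates 1, 2 and 3, so the shallow replicate 2 stood apart. Some of these noncoding genes, such as RAD21-AS1, HAS2-AS1 and MAL2-AS1, are named as antisense to members. The strand setting of the counting is not given, so their counts may not be independent of those of the members.

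PVT1, the neighbour of MYC that hosts several microRNAs, was highest in MDA-MB-436 at 19.4 ± 3.18 CPM and lowest in HCC1187 at 3.85 ± 1.22 CPM. PCAT1 was 16.8 ± 2.05 CPM in HCC1143 and 2.26 ± 1.23 CPM in HCC1395. Past the border in HCC38, MINCR was 0.752 ± 0.22 CPM, the lowest of the 15 lines, and LY6E-DT 0.172 ± 0.18 CPM, also the lowest. MAL2-AS1 was highest in HCC70 and lowest in HCC1395, the same lines as MAL2, and where the counting did not use strand the overlapping reads of the pair cannot be told apart.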
